A study of Mus musculus with 10 samples.

Results

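The genes described here encode the channels that release calcium from the endoplasmic reticulum and the proteins that let calcium enter the cell once that store is emptied. They were taken by symbol: the 3 IP3 receptors Itpr1, Itpr2 and Itpr3, the 3 ryanodine receptors Ryr1, Ryr2 and Ryr3, the store sensors Stim1 and Stim2 and the plasma membrane channels Orai1 and Orai2. All 10 had a row in each of the 10 count files, out of 48321 gene symbols listed. The RNA came from CD4+ T cells sorted from the spleens of C57BL/6 mice that carry a green fluorescent Foxp3 reporter, either wild type (WT) or Satb1 F/F:Thpok-cre (KO), in which the cre transgene removes Satb1, a chromatin organiser, after commitment to the CD4 lineage. WT cells were sorted into FoxP3+CD25+ (regulatory T cells, Tregs) and FoxP3-CD25- (non-Treg) cells, and KO cells into the same 2 fractions and FoxP3+CD25- cells. Each of the 5 groups held 2 libraries, whose labels number 2 mice of each genotype. The mice were adults of both sexes, aged 8 to 12 weeks on average by the study's methods. The numbers are taken here to mark the mice. Unless stated otherwise, the p-values measure the spread between libraries within a group, pooled over the groups. They treat libraries of the same mouse as independent, although these deviated together, and each genotype had only 2 mice.

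Engagement of the T cell receptor activates phospholipase C, which makes IP3. IP3 opens the IP3 receptors and calcium leaves the endoplasmic reticulum, and ryanodine receptors are a second family of release channels, best known from muscle, heart and brain. The Stim proteins sense the fall of calcium in the store, move to the plasma membrane and open the Orai channels, and the sustained entry drives calcineurin and the transcription factor NFAT. This store-operated entry is known to be needed for T cell activation and for Treg development and function.

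The files held 6094952 to 12410064 reads on genes per library. Values are given as CPM, a gene's reads per 1000000 reads on genes with the library size scaled by the trimmed mean of M values, and tests are edgeR's quasi-likelihood test on the raw counts with all 10 libraries in 1 model. The p-values were adjusted by the Benjamini-Hochberg method across 13796 genes, those left by a filter on low counts, and all 10 members were among them. Foxp3 lay between 617.7 and 739.1 CPM in the FoxP3+CD25+ libraries and between 17.96 and 38.87 CPM in the FoxP3-CD25- ones, as the sort requires, and summed T cell markers (Cd3d, Cd3e, Cd3g, Cd4, Trac) lay between 2516 and 3261 CPM. Summed B cell markers reached 35.1 CPM and summed NK markers 3.95 CPM. The Satb1 count was not called different between KO and WT cells (KO minus WT log2 fold change 0.40, SE 0.15, adjusted p = 0.9999 in Tregs and -0.16, SE 0.15, adjusted p = 0.927 in non-Tregs). A count over the whole gene does not resolve the exons that were removed, so it does not check the deletion. The first WT mouse was the only one of its sex by its X- and Y-linked transcripts, and results that lean on it are given without it. In bulk libraries such as these, fewer cells of a type and less RNA per cell cannot be told apart.

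Per kb of exon, Itpr2 and Itpr3 led the set in WT Tregs and the ryanodine receptors trailed it. There the mean level was 34.7 CPM per kb for Itpr2, 32.6 for Itpr3, 21.7 for Stim2, 20.7 for Orai1, 18.7 for Orai2, 14.0 for Stim1 and 6.27 for Itpr1. Ryr2, Ryr3 and Ryr1 stood at 0.578, 0.518 and 0.0340 CPM per kb in the same cells. The order above Itpr1 depends on the length used: per kb of the longest transcript instead of the union of exons, Stim1 moved from rank 6 to rank 2 in WT Tregs (33.3 CPM per kb against 32.7 for Itpr3), and in WT non-Tregs Stim1 (47.7) and Orai2 (47.4) exceeded Itpr2 (40.5) and Itpr3 (37.1). In WT Tregs the 4 lowest genes were Itpr1, Ryr2, Ryr3 and Ryr1 on both scales. Orai3, the remaining Orai gene and no member of the set, had group means between 13.9 and 18.2 CPM and no called difference.

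**Figure D1:**
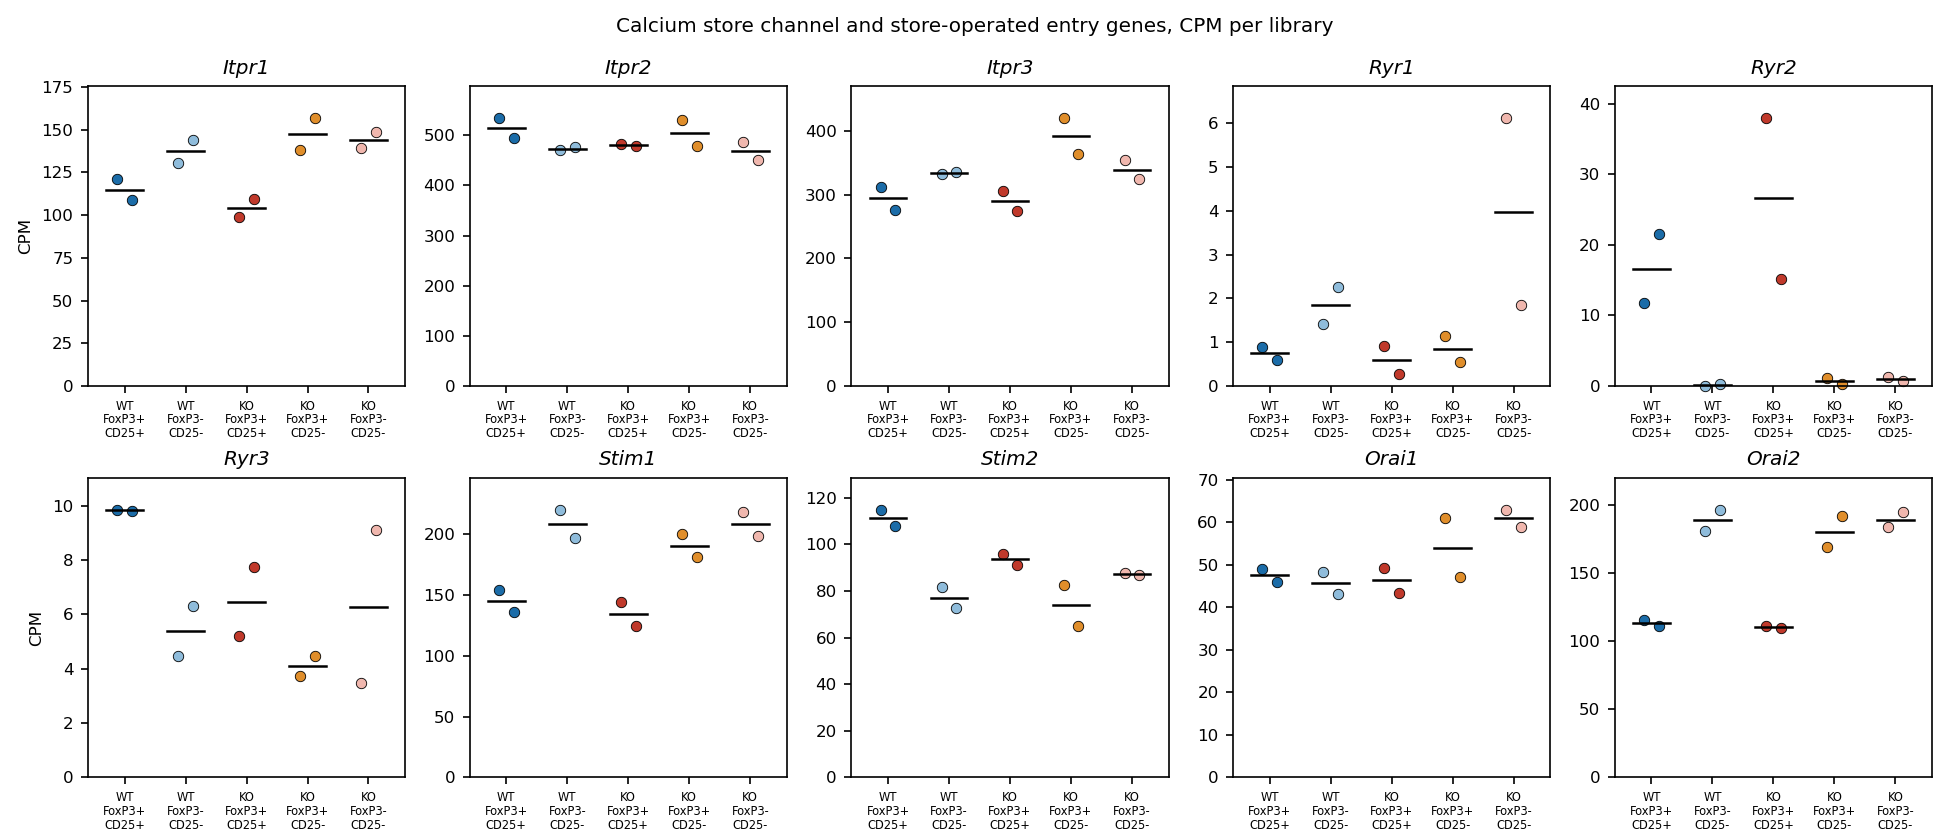
CPM (vertical axis, from 0, a separate scale for each gene) of the 10 genes in the 5 sorted groups. Points are single libraries (2 a group) and bars are group means. Ryr2 is high in both FoxP3+CD25+ groups and at or near 0 elsewhere, Orai2 and Stim1 are lowest in the FoxP3+CD25+ groups, and Itpr2 is nearly level.

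Ryr2 was almost confined to the FoxP3+CD25+ libraries among the 10 sequenced. This gene, the ryanodine receptor of heart muscle and brain, lies at chr13:11553102-12106945 on the minus strand of GRCm38. It had 92 and 182 reads in the 2 WT Treg libraries and 249 and 116 in the KO Treg libraries, which is 11.8, 21.5, 38.0 and 15.2 CPM. The 6 other libraries held between 0 and 8 reads each, namely 0 and 3 in WT non-Tregs, 8 and 5 in KO non-Tregs and 7 and 2 in KO FoxP3+CD25- cells. The library with no Ryr2 read was the deepest, where a count of 0 still allows up to 3 reads, or 0.242 CPM. No Treg library overlapped any other library.

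Ryr2 was higher in Tregs than in non-Tregs in both genotypes, which share no library. In WT cells the summed reads were 274 against 3, a ratio per depth of 122 with an exact 95% interval of 41.3 to 596, and in KO cells 365 against 13, a ratio of 27.0 (15.6 to 51.2). These intervals cover counting error only. The fitted log2 fold change was 6.77 (SE 0.88, adjusted p = 0.000402) in WT and 4.76 (SE 0.68, adjusted p = 0.00142) in KO. With single libraries left out the fitted value lay between 5.67 (without the first WT non-Treg library, at 0 reads) and 10.05 (without the second) in WT and between 3.97 (without the first KO Treg library) and 5.29 in KO, and it passed each time. The 2 differences were not distinguishable (KO minus WT -2.005, SE 1.70, adjusted p = 0.9999).

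KO FoxP3+CD25- cells, which carry Foxp3 at 318 to 361 CPM, had 7 and 2 Ryr2 reads. These 9 reads against 365 in KO Tregs gave a 43.8-fold lower level per depth in the FoxP3+CD25- cells (fitted log2 fold change -5.44, SE 0.72, adjusted p = 0.000760, and -6.82 to -4.52 with single libraries left out). Against KO non-Tregs the difference was -0.68 (SE 1.32, adjusted p = 0.951), an interval too wide to show that the groups are alike. In KO Tregs the Ryr2 level was 1.53 times that in WT Tregs by summed reads, but the 2 KO libraries differed by more than that between themselves (log2 fold change 0.66, SE 0.42, adjusted p = 0.9999). The call between Tregs and non-Tregs held under all 13 alternatives in WT and all 12 in KO. Of the markers listed for effector and memory T cells, Cd44 was 17.9 and 16.1 CPM in the KO FoxP3+CD25- libraries and 80.1 to 212 CPM in the other 8, and Cxcr3 was 12.6 and 9.85 CPM against 25.3 to 121 CPM. Itgae lay between 67.2 and 156 CPM in the Treg libraries and between 0.722 and 4.85 CPM in the others, and Klrg1 between 7.81 and 24.6 CPM and between 0 and 1.19 CPM.

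The summed naive T cell markers were 1541 and 2059 CPM in WT Tregs against 2924 and 2943 in WT non-Tregs, and 1801 and 1834 in KO Tregs against 2576 and 2500 in KO non-Tregs and 2860 and 3187 in KO FoxP3+CD25- cells. They were thus lower in each Treg library than in every other library. The part of naive, effector and memory cells in these and the following results was not tested.

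The 3 sequences shown are the stretches just upstream of the annotated starts of Ryr2, Stim1 and Orai2. These are the members called between Tregs and non-Tregs in both genotypes. They are from RefSeq on GRCm38.p6, whose table matched 8 of the 10 members. Capitals mark an E-box (CACGTG) or a GC box (GGGCGG, or CCGCCC on the other strand), and each is printed 5′ to 3′ on the gene's strand. The Ryr2 stretch lies at chr13:12106946-12107195 on the minus strand, that of Stim1 at chr7:102267569-102267805 on the plus strand and that of Orai2 at chr5:136170714-136170906 on the minus strand.
Ryr2: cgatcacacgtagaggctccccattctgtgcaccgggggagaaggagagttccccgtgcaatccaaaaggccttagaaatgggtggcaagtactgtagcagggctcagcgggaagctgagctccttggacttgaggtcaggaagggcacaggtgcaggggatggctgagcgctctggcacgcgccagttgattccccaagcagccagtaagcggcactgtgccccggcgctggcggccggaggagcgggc
Stim1: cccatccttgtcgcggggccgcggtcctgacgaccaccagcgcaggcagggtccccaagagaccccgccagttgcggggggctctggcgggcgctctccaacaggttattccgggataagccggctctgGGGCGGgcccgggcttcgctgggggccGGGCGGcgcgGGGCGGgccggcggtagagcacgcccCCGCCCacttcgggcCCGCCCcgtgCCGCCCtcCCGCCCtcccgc
Orai2: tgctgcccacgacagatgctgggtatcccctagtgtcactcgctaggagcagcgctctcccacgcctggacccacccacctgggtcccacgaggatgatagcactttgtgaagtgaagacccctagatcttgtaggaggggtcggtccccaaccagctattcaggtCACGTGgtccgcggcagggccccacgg

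In the 250 bases before the RefSeq start, searched on both strands, Stim1 held 8 GC boxes (7 of them in the printed stretch), Orai2 held 2 E-boxes (1 of them in the printed stretch) and 1 GC box outside it, and Ryr2 held none of the 5 motifs searched. The other 3 were a forkhead motif (TGTTTAC), an NFAT core (GGAAAA) and a Runx motif (TGTGGT), and none of them was found in any of the 3 windows. Of the 32851 promoters in the table, 32.7% held the GC box, 6.02% the E-box, 20.4% the NFAT core, 14.05% the Runx motif and 3.17% the forkhead motif. The motifs were chosen after the sequences had been seen, and these matches are descriptions of letters, not binding sites. The base composition of the 3 windows differed, with 78.4% G and C for Stim1, 63.6% for Orai2 and 63.2% for Ryr2.

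Among the IP3 receptors, Itpr2 was level across the sorted groups and Itpr1 was lowest in Tregs. Itpr3 had its highest mean in KO FoxP3+CD25- cells, but the gap to KO non-Tregs was within the spread of the libraries. Itpr2, the member with the most reads, had 534 and 494 CPM in WT Tregs, 471 and 476 in WT non-Tregs, 482 and 478 in KO Tregs, 531 and 478 in KO FoxP3+CD25- cells and 487 and 451 in KO non-Tregs. None of the 8 comparisons between groups called it, and its largest log2 fold change was 0.12 (SE 0.10, adjusted p = 0.577), in WT Tregs against WT non-Tregs.

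Itpr1, the IP3 receptor best known from cerebellar Purkinje cells, had 121 and 109 CPM in WT Tregs, 130 and 144 in WT non-Tregs, 98.7 and 109 in KO Tregs, 138 and 157 in KO FoxP3+CD25- cells and 139 and 149 in KO non-Tregs. Every Treg library was lower than every other library. In KO cells Itpr1 was 1.38-fold lower in Tregs than in non-Tregs (log2 fold change -0.47, SE 0.12, adjusted p = 0.0355) and higher in FoxP3+CD25- cells than in Tregs (0.50, SE 0.11, adjusted p = 0.0230). In WT cells the difference was -0.26 (SE 0.11, adjusted p = 0.215) and did not pass, and the difference between the genotypes was -0.21 (SE 0.16, adjusted p = 0.9999). The KO Treg call passed in 6 of 12 alternatives and in none of the 4 that leave out 1 library (-0.55 to -0.40). The call of FoxP3+CD25- cells against KO Tregs passed in 9 of 12 alternatives and in 1 of the 4 that leave out 1 library (0.41 to 0.59).

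Itpr3 had 312 and 276 CPM in WT Tregs, 332 and 335 in WT non-Tregs, 306 and 274 in KO Tregs, 420 and 363 in KO FoxP3+CD25- cells and 354 and 324 in KO non-Tregs. The KO FoxP3+CD25- libraries were the 2 highest of the 10, and were higher than KO Tregs (log2 fold change 0.43, SE 0.12, adjusted p = 0.0485) and WT Tregs (0.41, SE 0.12, adjusted p = 0.0434). Without the first WT mouse the call against WT Tregs did not pass. Both calls lie close to the threshold and passed in 5 of 12 and 7 of 13 alternatives, with 0 of 4 and 1 of 4 passing where 1 library was left out. Itpr3 was not called between Tregs and non-Tregs in either genotype (-0.18, SE 0.11, adjusted p = 0.414 in WT and -0.22, SE 0.12, adjusted p = 0.402 in KO). Nor was it called between KO FoxP3+CD25- cells and KO non-Tregs (0.21, SE 0.11, adjusted p = 0.659) or WT non-Tregs (0.23, SE 0.11, adjusted p = 0.661). Within a library, the ratio of Itpr3 to Itpr2 reads was 0.572 ± 0.018 (SD, n = 2) in WT Tregs, 0.705 ± 0.0010 in WT non-Tregs, 0.604 ± 0.042 in KO Tregs, 0.723 ± 0.0050 in KO non-Tregs and 0.775 ± 0.021 in KO FoxP3+CD25- cells. The Treg libraries of both genotypes had the lowest ratios and did not overlap the other groups. The antisense gene Itpr3os shares 233 exon bases with Itpr3 and had 808 reads in all libraries, and as no strand setting of the counting is given in the sources used here, reads of the 2 genes cannot be told apart there.

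The other ryanodine receptors were scarce. Ryr1, the channel of skeletal muscle, had 7 and 5 reads in WT Tregs, 17 and 22 in WT non-Tregs, 6 and 2 in KO Tregs, 7 and 5 in KO FoxP3+CD25- cells and 37 and 14 in KO non-Tregs. The non-Treg libraries were the 4 highest of the 10 in CPM, from 1.41 to 6.12, and the first KO non-Treg library stood well above the rest. In the edgeR fit no comparison called Ryr1 (KO Tregs against KO non-Tregs -2.72, SE 0.77, adjusted p = 0.0671). This difference passed in 4 of 12 alternatives, with DESeq2 (adjusted p = 0.0391), without the filter on low counts (adjusted p = 0.0184), without the second KO non-Treg library (-3.40, adjusted p = 0.0198) and with the mouse as a block (adjusted p = 0.00396). With the block, so did that between KO FoxP3+CD25- cells and KO non-Tregs (-2.16, adjusted p = 0.0176).

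Ryr3, a ryanodine receptor found at low levels in many tissues, had 9.85 and 9.80 CPM in WT Tregs, 4.47 and 6.29 in WT non-Tregs, 5.19 and 7.73 in KO Tregs, 3.72 and 4.49 in KO FoxP3+CD25- cells and 3.47 and 9.09 in KO non-Tregs. WT Tregs were the highest 2 libraries, at a log2 fold change of 0.88 over WT non-Tregs (SE 0.36, adjusted p = 0.171), which passed with the mouse as a block (adjusted p = 0.0329). Ryr3 shares 916 exon bases with Aven, an apoptosis regulator on the opposite strand with 3236 reads in all, so the Ryr3 counts are uncertain.

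The 2 store sensors moved in opposite directions between WT Tregs and WT non-Tregs. Stim1 (chr7:102267806-102437319, plus strand) encodes the sensor that opens Orai channels after strong store depletion. It had 154 and 136 CPM in WT Tregs, 220 and 196 in WT non-Tregs, 144 and 124 in KO Tregs, 200 and 181 in KO FoxP3+CD25- cells and 218 and 198 in KO non-Tregs. The 4 Treg libraries were the lowest 4 and no Treg library overlapped another group. Stim1 was 1.43-fold lower in Tregs than in non-Tregs in WT (log2 fold change -0.52, SE 0.12, adjusted p = 0.0172) and also lower in KO (-0.64, SE 0.12, adjusted p = 0.0103). With both libraries of the first WT mouse left out the WT value was -0.52 but did not pass (adjusted p = 0.123), and leaving out single libraries gave -0.60 to -0.42 in WT (passing in 2 of 4) and -0.75 to -0.53 in KO (passing in 2 of 4). KO FoxP3+CD25- cells were above KO Tregs (0.51, SE 0.12, adjusted p = 0.0292), a call that passed in 8 of 12 alternatives and in 0 of the 4 that leave out 1 library (0.40 to 0.62).

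Stim2 (chr5:53998499-54121057, plus strand), the sensor that responds to small falls in store calcium, ran the other way in WT cells. It had 115 and 108 CPM in WT Tregs, 81.8 and 72.5 in WT non-Tregs, 96.0 and 91.1 in KO Tregs, 82.8 and 65.1 in KO FoxP3+CD25- cells and 87.7 and 86.7 in KO non-Tregs. WT Tregs were 1.44-fold above WT non-Tregs (log2 fold change 0.53, SE 0.13, adjusted p = 0.0200), whereas in KO the difference was 0.10 (SE 0.13, adjusted p = 0.814). The test of the difference between the genotypes gave -0.43 (SE 0.18, unadjusted p = 0.0367 by edgeR, adjusted p = 0.973), so it was not shown that the 2 genotypes differ. Without the first WT mouse the WT value was 0.58 and did not pass (adjusted p = 0.127), and leaving out single libraries gave 0.45 to 0.61, passing in 1 of 4. KO FoxP3+CD25- cells were lower than WT Tregs (-0.60, SE 0.13, adjusted p = 0.0116), which passed in 9 of 13 alternatives and in 2 of the 4 that leave out 1 library (-0.78 to -0.41), and not without the first WT mouse (-0.56, adjusted p = 0.0703).

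The ratio of Stim1 to Stim2 reads, taken within each library and so free of its depth, separated the FoxP3+CD25+ libraries from all others. It was 1.34 and 1.26 in WT Tregs and 1.501 and 1.36 in KO Tregs, against 2.69 and 2.71 in WT non-Tregs, 2.49 and 2.29 in KO non-Tregs and 2.42 and 2.78 in KO FoxP3+CD25- cells. With 2 libraries a group, an exact permutation test cannot go below 0.333, so the ratio is given as a description. Per kb of exon, Stim1 made up 39.2% ± 1.1 (SD, n = 2) of the Stim level in WT Tregs and 57.2% ± 0.13 in WT non-Tregs. Per kb of the longest transcript the shares were 59.5% and 75.3%, so which of the 2 genes is the more abundant in Tregs depends on the length, while the gap between the groups is present on both scales.

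**Figure D2:**
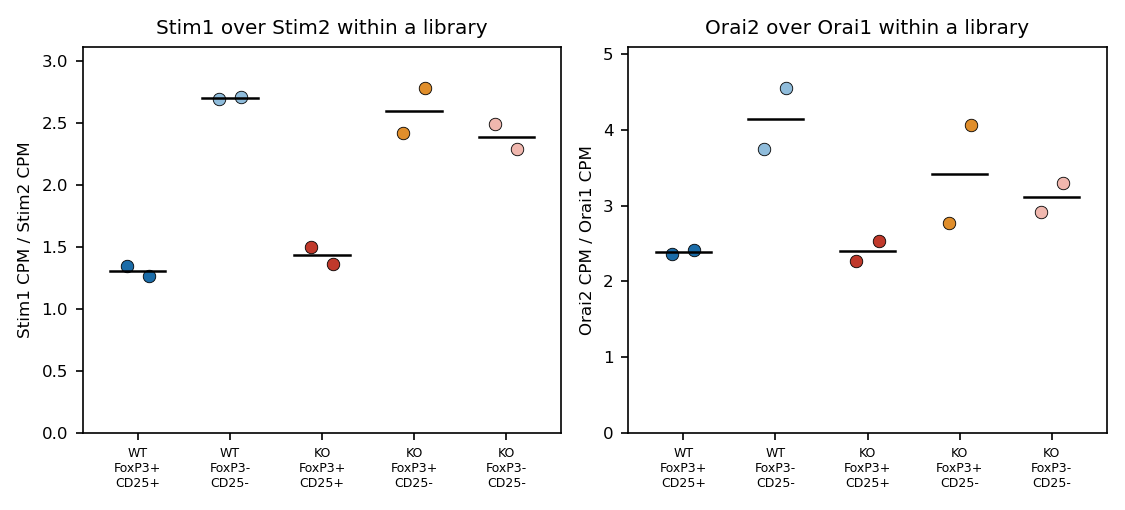
Ratio of Stim1 to Stim2 CPM (left) and of Orai2 to Orai1 CPM (right) within each library (vertical axis, no unit, from 0) in the 5 sorted groups. Points are single libraries and bars are means of 2. The Stim ratio is 1.26 to 1.501 in the FoxP3+CD25+ libraries and 2.29 to 2.78 in the others, and the Orai ratio is 2.26 to 2.53 against 2.77 to 4.55.

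Orai2 was the entry channel gene called lower in Tregs than in non-Tregs, and its difference was the most stable of the set beside that of Ryr2. Orai2 (chr5:136147459-136170713, minus strand) encodes a channel subunit that can join Orai1 in mixed channels. It had 116 and 111 CPM in WT Tregs, 181 and 197 in WT non-Tregs, 112 and 110 in KO Tregs, 169 and 192 in KO FoxP3+CD25- cells and 184 and 195 in KO non-Tregs. The 4 Treg libraries lay between 110 and 116 CPM and the 6 others between 169 and 197. Orai2 was 1.67-fold lower in Tregs than in non-Tregs in WT (log2 fold change -0.74, SE 0.10, adjusted p = 0.000898) and lower by a like amount in KO (-0.77, SE 0.10, adjusted p = 0.00141). KO FoxP3+CD25- cells were above KO Tregs (0.71, SE 0.10, adjusted p = 0.00211) and did not pass against KO non-Tregs (-0.07, SE 0.10, adjusted p = 0.935). These 3 calls held in every alternative run.

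Orai1, the pore subunit of the channel in T cells, had 49.1 and 46.0 CPM in WT Tregs, 48.4 and 43.2 in WT non-Tregs, 49.3 and 43.5 in KO Tregs, 60.9 and 47.3 in KO FoxP3+CD25- cells and 63.0 and 58.9 in KO non-Tregs. The WT groups overlapped, and the KO non-Treg libraries lay above both KO Treg and both WT non-Treg libraries. No comparison called Orai1: KO non-Tregs exceeded WT non-Tregs by 0.41 (SE 0.14, unadjusted p = 0.0153 by edgeR, adjusted p = 0.438) and KO Tregs differed from KO non-Tregs by -0.39 (SE 0.14, adjusted p = 0.177). The latter passed with the mouse as a block (adjusted p = 0.0301).

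Counted over the set, the calls fell in the comparisons that involve FoxP3+CD25+ cells. The members were chosen with earlier results of these data known, so the counts are descriptions and do not test the set. Between WT Tregs and WT non-Tregs 2 of 10 members were higher (Ryr2, Stim2) and 2 lower (Stim1, Orai2), where 10.9% of all genes tested were called, 7.15% higher and 3.75% lower, and the median log2 fold change was -0.07 over the members and -0.02 over all genes. Between KO Tregs and KO non-Tregs 1 was higher (Ryr2) and 3 were lower (Itpr1, Stim1, Orai2), with 6.34% of all genes called (3.52% higher, 2.81% lower) and medians of -0.31 and -0.0012. The 2 groups did not overlap for 4 higher and 5 lower members in WT and for 2 higher and 6 lower members in KO, which is true of 47% and 46.5% of all genes. Ryr2, Stim1 and Orai2 were called in the same direction in 2 comparisons that share no library.

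KO FoxP3+CD25- cells, compared with KO Tregs, had 4 members higher (Itpr1, Itpr3, Stim1, Orai2) and 1 lower (Ryr2), where 7.02% of all genes were called (2.25% higher, 4.76% lower) and the medians were 0.32 and 0.0037. This comparison shares the KO Treg libraries with the one before, so their directions are not independent. Compared with WT Tregs, Itpr3 and Orai2 were higher and Ryr2 and Stim2 lower, with 11.2% of all genes called (3.88% higher, 7.34% lower). Compared with KO non-Tregs, 0 of 10 members were called by edgeR or DESeq2, 1 (Ryr1) had an unadjusted p under 0.05, and 1.67% of all genes were called and 10% had such a p. Compared with WT non-Tregs, 0 of 10 were called by either tool and 0 had an unadjusted p under 0.05, where 0.768% of all genes were called and 8.8% had such a p.

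**Figure D3:**
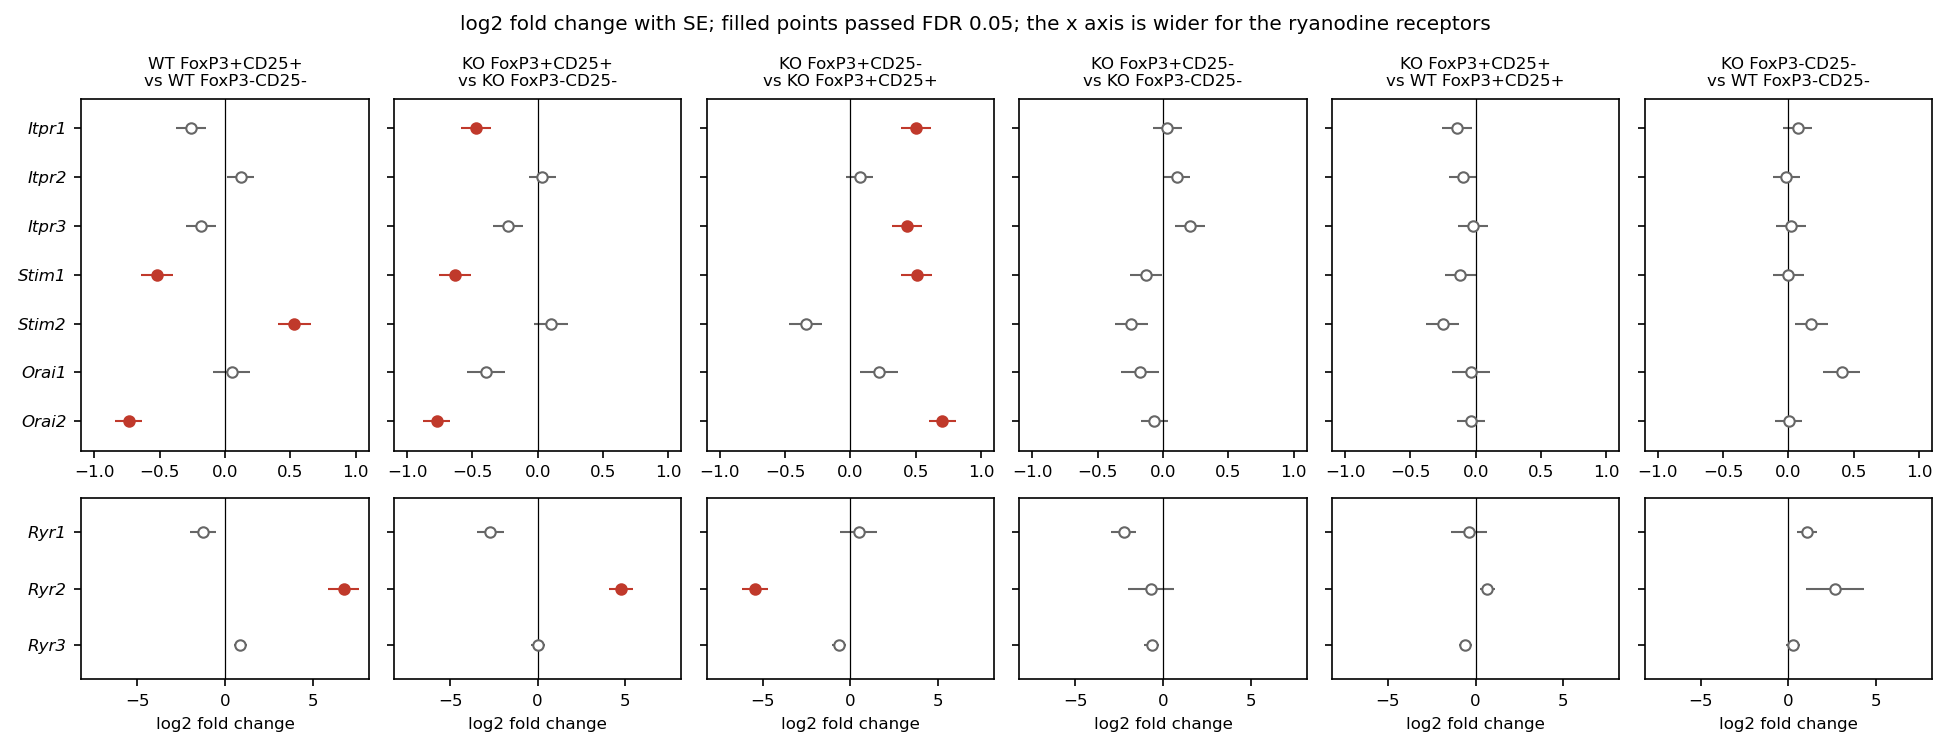
log2 fold change (horizontal axis, first group minus second, with the SE as bars) of the 10 genes in 6 comparisons, each from 2 libraries a group. Filled points passed an adjusted p of 0.05, and the axis is wider for the 3 ryanodine receptors in the lower row. Orai2, Stim1 and Ryr2 are called in the first 3 panels, and no gene is called in the last 3.

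Within a sorted fraction, no member was called between Satb1 F/F:Thpok-cre and WT cells. Between KO and WT Tregs 0 of 10 members were called by edgeR or DESeq2 and 0 had an unadjusted p under 0.05, where 0.00725% of all genes were called and 4.3% had such a p. Leaving out the ryanodine receptors, the log2 fold changes ran from -0.25 (Stim2) to -0.02 (Itpr3), with SEs of 0.10 to 0.14. Between KO and WT non-Tregs 0 of 10 were called by either tool, 1 (Orai1) had an unadjusted p under 0.05, and 0.145% of all genes were called and 8.02% had such a p. The same 7 genes ran from -0.01 (Itpr2) to 0.41 (Orai1). No member had a called difference between the genotypes in the step from non-Tregs to Tregs. By edgeR 0 of the 13796 genes were called there, 685 had an unadjusted p under 0.05 (4.97% of those tested), and the count rose to 25 with DESeq2, 149 with the mouse as a block, 121 of 14347 without the second WT Treg library and 7 of 28262 without the filter. In simulated counts at this depth and number of libraries, 63% of genes changed 2-fold and 95% of genes changed 4-fold were called between WT Tregs and WT non-Tregs. The simulation changed 200 genes in WT Tregs and gave all genes the same spread. Smaller changes were not simulated. How often changes between the genotypes, or in the difference between them, would be called was not assessed.

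Other genes of calcium handling were also among those called between Tregs and non-Tregs. Their list too was chosen with earlier results of these data known, so its counts are descriptions. Of 95 symbols listed (store-operated entry partners, pumps, IP3 metabolism, receptor partners, mitochondrial uptake, calcineurin and NFAT, voltage-gated channels), 90 were in the files and 63 passed the filter. Between WT Tregs and WT non-Tregs 8 were higher and 2 lower, and between KO Tregs and KO non-Tregs 5 were higher and 4 lower, where 10.9% and 6.34% of all genes were called. The median log2 fold change over the 63 was 0.15 in WT and -0.06 in KO, against -0.02 and -0.0012 over all genes.

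The genes called higher in Tregs of both genotypes were Ahcyl2, Cd38 and Plcb3. Ahcyl2, a relative of the IP3 receptor binding protein IRBIT, had 282 and 325 CPM in WT Tregs against 124 and 107 in WT non-Tregs, 258 and 253 in KO Tregs and 96.6 and 92.6 in KO non-Tregs (log2 fold change 1.40, SE 0.12, adjusted p = 4.02e-05 in WT and 1.43, SE 0.12, adjusted p = 7.61e-05 in KO). Cd38, the ectoenzyme that makes cyclic ADP-ribose, a messenger that acts on ryanodine receptors, had 33.4 and 20.1 CPM in WT Tregs, 5.55 and 3.82 in WT non-Tregs, 27.6 and 27.1 in KO Tregs and 9.10 and 9.75 in KO non-Tregs. It rose in Tregs by 2.49 (SE 0.29, adjusted p = 0.000270) in WT and 1.53 (SE 0.28, adjusted p = 0.00782) in KO. The KO call of Cd38 passed in 2 of the 4 alternatives that leave out 1 library. KO FoxP3+CD25- cells had 5.01 and 3.28 CPM of Cd38, lower than KO Tregs by -2.76 (SE 0.31, adjusted p = 0.000453).

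The phospholipase C genes Plcb3 and Plcb4, which make IP3 downstream of G protein-coupled receptors, were higher in WT Tregs by 1.13 (SE 0.17, adjusted p = 0.00130) and 2.09 (SE 0.28, adjusted p = 0.000717). Plcb3 was also called in KO (0.90, SE 0.17, adjusted p = 0.0109), passing in 2 of the 4 alternatives that leave out 1 library, and Plcb4 was 0.96 there (SE 0.28, adjusted p = 0.0723). Without the first WT mouse Plcb3 did not pass in WT (0.86, adjusted p = 0.0503). The plasma membrane pumps Atp2b1 and Atp2b4, which push calcium out of the cell, were higher in WT Tregs by 0.82 (SE 0.13, adjusted p = 0.00190) and 1.80 (SE 0.37, adjusted p = 0.00970). In KO they were not called (0.22, SE 0.13, adjusted p = 0.501 and -0.24, SE 0.37, adjusted p = 0.861). Without the first WT mouse the WT values were 0.60 (adjusted p = 0.0794) and 1.31 (adjusted p = 0.0244), and with single libraries left out Atp2b4 ranged from 0.95 to 2.35 and passed in 2 of 4. Atp2b4 was 178 and 67.8 CPM in the 2 WT Treg libraries, a wide spread, and 10.7 and 11.4 CPM in KO FoxP3+CD25- cells, lower there than in KO non-Tregs by -2.75 (SE 0.43, adjusted p = 0.00937, passing in 1 of 4 with 1 library left out). The store pump Atp2a3 (SERCA3) was lower in KO Tregs than in KO non-Tregs (-0.53, SE 0.12, adjusted p = 0.0245), which passed in 0 of the 4 alternatives that leave out 1 library.

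Mrvi1, whose product binds the IP3 receptor as a target of cyclic GMP signalling, and Cacnb3, a calcium channel beta subunit, were the 2 genes lower in WT Tregs. Cacnb3 had 0.896 and 1.06 CPM in WT Tregs against 6.54 and 4.23 in WT non-Tregs (-2.46, SE 0.41, adjusted p = 0.00272), and it was lower in KO Tregs too (-3.24, SE 0.45, adjusted p = 0.00168). Mrvi1 had 15 and 12 reads in WT Tregs and 68 and 40 in WT non-Tregs. It fell by 1.56 on the log2 scale in WT Tregs (SE 0.34, adjusted p = 0.0116, and -1.78 to -1.32 with 1 library left out). In KO Tregs Mrvi1 was not called (-0.76, SE 0.37, adjusted p = 0.367). Without the first WT mouse, neither passed in WT (-1.97, adjusted p = 0.0939 for Cacnb3 and -1.53, adjusted p = 0.135 for Mrvi1). Cacna1f, a voltage-gated channel gene that lies downstream of Foxp3 on the same strand of chromosome X, had 0 reads in all 4 WT libraries, 73 and 92 in KO Tregs, 45 and 64 in KO FoxP3+CD25- cells and 4 and 5 in KO non-Tregs. In the edgeR fit it was the only gene of the 13796 called between KO and WT Tregs (adjusted p = 0.00535). DESeq2 called 5 genes there, the block on the replicate number 4 and edgeR on the compared libraries alone 0 of 13090 (adjusted p = 0.1002 for Cacna1f). Its reads in KO libraries were most where Foxp3 was high. Whether WT and KO mice carried the reporter at Foxp3 in the same form is not given in the sources used here, and such a difference and the Satb1 genotype cannot be told apart.

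**Figure D4:**
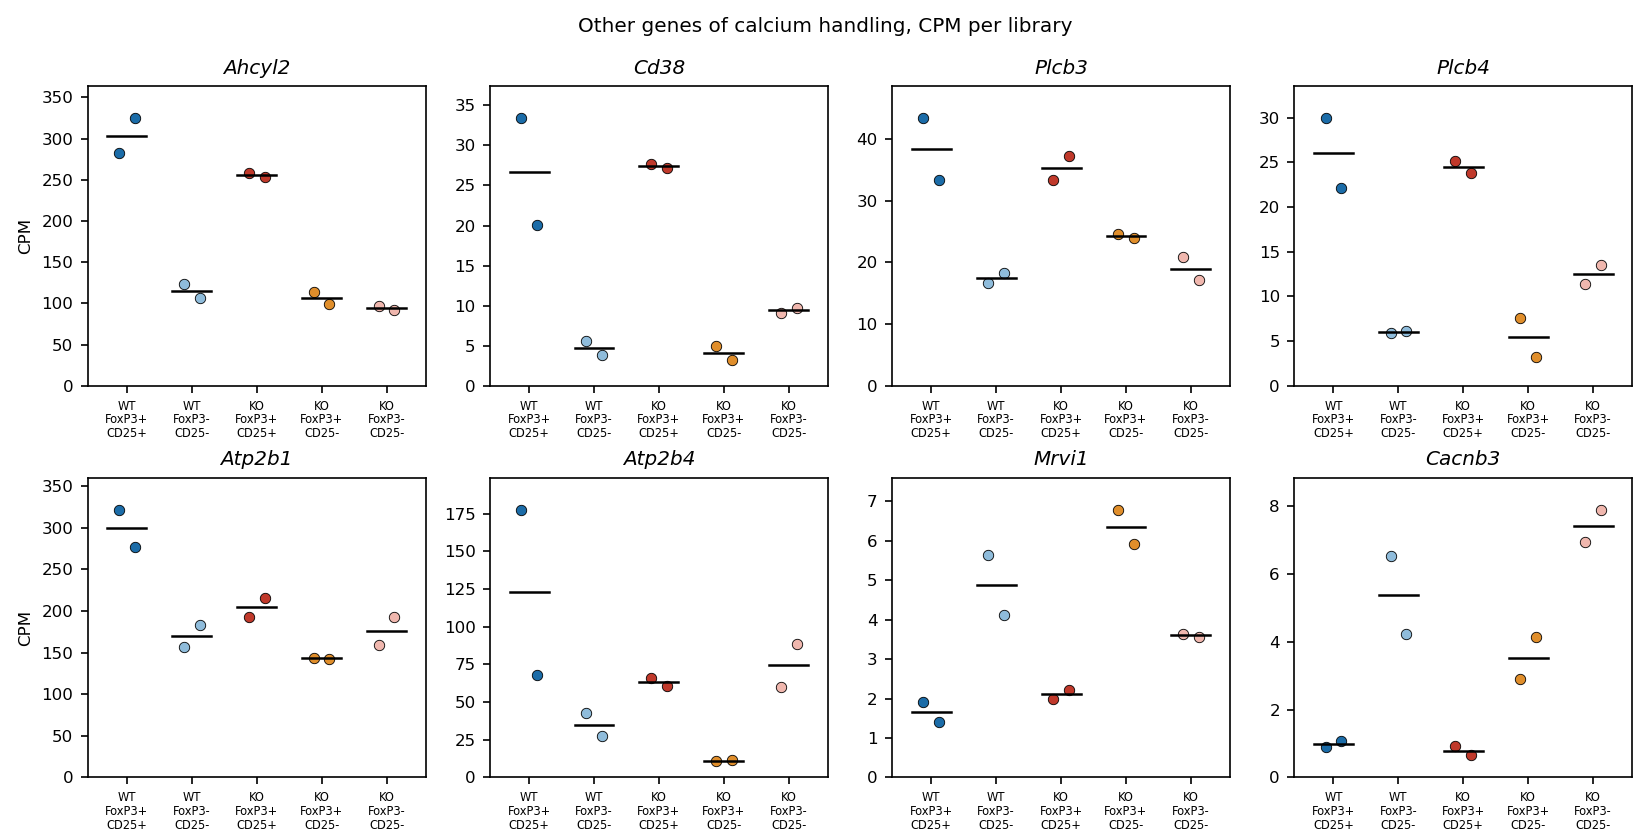
CPM (vertical axis, from 0, a separate scale for each gene) of 8 other calcium-handling genes in the 5 sorted groups, chosen from those called between WT Tregs and WT non-Tregs. Points are single libraries and bars are means of 2. Ahcyl2, Cd38 and Plcb3 are highest in both FoxP3+CD25+ groups, Cacnb3 is lowest in them, and Atp2b4 is lowest in KO FoxP3+CD25- cells.

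The genes whose log2 CPM followed a called member most closely over the 10 libraries were found by Pearson correlation among all 13796 genes. For Ryr2 they were Ltb4r1 (r = 0.989), Gm17040 (r = 0.982) and Ephx1 (r = 0.977), of which Ltb4r1 never exceeded 1.53 CPM. For Orai2 they were Cyp2s1, A430078G23Rik and Ggt5 (r = 0.985 each), for Stim1 9830144P21Rik (r = 0.980), Stk4 (r = 0.979) and Madd (r = 0.974), and for Stim2 Cdk6 (r = 0.965), Rab8b (r = 0.960) and Gnaq (r = 0.960). The 10 libraries fall into the sorted groups, so that the points share the contrast between Tregs and the rest and the values are descriptions.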

How the data were processed

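RNA of 10 sorted CD4+ T cell samples was sequenced with 50-base reads on a HiSeq2500. The deposited files hold raw counts of reads per gene symbol made by the authors with HISAT2 2.1.0 (mm10) and HTSeq 0.11.1, per the submitters' processing notes. The strand setting is not given in the sources used here. The 5 tally rows that name no gene (71.46 to 73.99% of each file's total) were left out.

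Depth was 6094952 to 12410064 reads on genes, so that 3 reads equal 0.2417 to 0.4922 CPM before scaling. Counts were tested with edgeR 4.0.16 (R 4.3.3; TMM, filterByExpr with a minimum count of 10, glmQLFit and glmQLFTest on 13796 genes, adjusted p under 0.05), with 8 comparisons of groups and 1 of the differences between genotypes. SEs are derived from the quasi-likelihood F. Ratios of summed Ryr2 reads have exact binomial 95% intervals. The code was tested on simulated data (13415 genes, 200 changed in WT Tregs against WT non-Tregs): 158 of the 166 calls were true. Lengths are from the GRCm38 annotation.

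Members and lists were chosen with earlier results of these data known. Named outside the members are a part of the listed calcium genes past the threshold and, for each member called between WT Tregs and WT non-Tregs, the 3 genes of highest correlation. Other listed genes past the threshold, such as Lrmp, Itpripl2, Inpp5a and Cacna1d, are not described. The 4 pathway symbols that are other names of listed genes, and 1 more, had no row. The alternatives were other filters, scalings and tests (DESeq2 1.42.0, legacy edgeR), fewer libraries, a replicate block and transcript length. For the named calcium genes outside the members they were run after the data had been seen. The main fit had no block. Libraries of 1 mouse deviated together (correlations of deviations over genes 0.303 in WT and 0.421 to 0.445 in KO), and the labels number the mice within a genotype. The mouse was therefore used as a block within genotypes as an alternative. No 2 libraries held identical counts. Over the libraries, the marker lists not given with the results summed to 123 to 3284 CPM (Treg), 9.38 to 16.6 (CD8), 17.6 to 25.1 (myeloid), 0 to 1.07 (dendritic), 1.84 to 4.05 (megakaryocyte or platelet) and 0.745 to 2.30 (erythroid). The summed level of the effector and memory list is not reported here.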

Additional observations from a re-analysis of the deposited data

Results flagged for a closer look

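Orai1 was lower in Tregs than in non-Tregs of the 2 KO mice and nearly level between these fractions in the 2 WT mice. In CPM, Tregs minus non-Tregs was 0.767 and 2.71 in the 2 WT mice and -13.7 and -15.4 in the 2 KO mice. The difference between the genotypes, KO minus WT, was -0.446 on the log2 scale (SE 0.20, unadjusted p = 0.0509 by edgeR, adjusted p = 0.9999), and did not pass. The WT differences are smaller than the spread between the libraries of a WT group (49.1 and 46.0 CPM in Tregs, 48.4 and 43.2 CPM in non-Tregs).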

How the results depend on the processing

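Of the log2 fold changes of members with an unadjusted p under 0.05 in a comparison, 0 turned sign under any alternative. Over their alternatives, 302 kept their side of the threshold, 40 no longer passed and 13 newly passed. Ryr2 and Orai2 passed under every alternative run in the comparisons of Tregs with non-Tregs and of KO FoxP3+CD25- cells with either Treg group.

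The count of members called between WT Tregs and WT non-Tregs was 4 and fell to 2 without both libraries of WT mouse 1, and single libraries left out gave 2 to 3, with 2 without the first WT non-Treg library. Between KO Tregs and KO non-Tregs, single libraries left out gave 2 to 4 against 4, with 2 without the first KO non-Treg or the second KO Treg library. Between KO FoxP3+CD25- cells and KO Tregs they gave 2 to 3 against 5, with 2 without either KO Treg library or the second FoxP3+CD25- library and 3 without the first. Between KO FoxP3+CD25- cells and WT Tregs the count of 4 became 2 with the compared libraries alone, 2 without WT mouse 1 and 2 to 3 with single libraries left out (2 without the first WT Treg library). These fits rest on fewer libraries, and in most of them the calls over all genes fell as well.

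With the replicate block (the mouse) the count between KO FoxP3+CD25- cells and KO non-Tregs went from 0 to 1, Ryr1. Over all 13796 genes the calls went from 230 to 787 there. The mouse block also brought Ryr1 and Orai1 in KO Tregs, Ryr3 in WT Tregs and Stim2 between KO FoxP3+CD25- cells and KO Tregs (-0.35, adjusted p = 0.0378) past the threshold. In these 3 comparisons the calls over all genes rose too, from 874 to 1650, from 1504 to 2634 and from 968 to 2090. Between genotypes samples share only a number (correlations -0.011 to 0.114), and there the replicate block gave 7 members between KO FoxP3+CD25- cells and WT Tregs against 4, with no other member count moved by over 1.5 times. Over all 13796 genes, the calls in that comparison rose from 1548 to 2153 with the block.

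With the longest transcript as length, the shares of a family's CPM per kb in WT Tregs, WT non-Tregs, KO Tregs, KO non-Tregs and KO FoxP3+CD25- cells moved, for Stim1 to 59.5, 75.3, 61.8, 72.9 and 74.5%, for Itpr1 to 13.2, 15.2, 12.6, 15.8 and 14.8% and for Orai2 (Orai3 included in the family) to 45.8, 60.3, 46.1, 54.6 and 56.1%. Depth limits Ryr1 and, outside Tregs, Ryr2, which had at most 37 and 8 reads in a library.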
